A study of Mus musculus with 16 samples.

Results

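The messenger RNAs of 57 genes that encode enzymes and remodelling proteins of chromatin were followed in brain and liver of heterozygous HdhQ111 mice. The genes were taken by name: symbols that begin with Kdm, Kmt, Hdac, Dnmt, Prmt, Setd, Smarc or Ezh, or with Kat, Sirt or Chd and a digit, and Ep300. Crebbp, its close relative, was not analysed here. Their 85 probes gave values for 57 of the 9026 named genes of the array, while 113 mouse genes in RefSeq have a symbol of this form. The mutant group held 4 male C57BL/6J mice of 18 weeks with the genotype HdhQ111/+, a knock-in that puts an expanded CAG repeat into 1 copy of the huntingtin gene, so that it is expressed from the gene's own promoter in every tissue. The control was wildtype RNA pooled from 4 males of the same strain and age, with 1 pool for each tissue. Each mutant mouse was hybridised against the pool on 2 cDNA arrays per tissue, with the Cy3 and Cy5 dyes swapped, and the same 4 mice gave both organs. Every value below is a log2 ratio, likely of HdhQ111/+ over wildtype, so a positive value is a higher level in the mutant. The sources used here state neither the log base, which was taken as 2, nor the sign. Gene names rest on a shift of 11 rows between the probe annotation and the values, which no source states. A ratio carries no level, so neither the identity of the tissue nor the order of abundance of these genes could be checked. In total RNA of a whole organ, fewer cells of a type and less RNA per cell cannot be told apart.

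Chromatin is regulated by enzymes that add or remove small chemical groups on histones and DNA and by ATP-driven motors that move nucleosomes. Acetyl groups, written by the Kat and Ep300 acetyltransferases and erased by Hdac and Sirt deacetylases, generally go with open and transcribed chromatin. Methyl groups on lysine are written by the Kmt, Setd and Ezh enzymes and erased by the Kdm demethylases, those on arginine are written by the Prmt enzymes, and those on DNA by the Dnmt enzymes. Smarc proteins are mostly subunits of the SWI/SNF remodelling complex, and Chd proteins are a further family of remodelling motors. In Huntington's disease, mutant huntingtin has been described to bind and impair acetyltransferases, and deacetylase inhibitors have been studied in its models.

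The member with the largest mean ratio in brain, among those measured in at least 3 mice, was Kdm1a. It is a flavin-dependent demethylase of histone H3 that acts in the CoREST repressor complex. The member with the smallest p in limma for a difference between the tissues was Kmt5b, which methylates histone H4 in heterochromatin. Their promoter windows are shown because these genes had the lowest p-values among the members. Sequences are RefSeq's for GRCm38.p6 and run 5′ to 3′ on the gene's strand across an annotated start, 300 bases each. Capitals mark matches to GGGCGG (the GC box) or CCAAT, on either strand. The window of Kdm1a lies at chr4:136602674-136602973 on the minus strand, and those of Kmt5b, from separate annotated starts, at chr19:3767171-3767470 and chr19:3767639-3767938 on the plus strand.
Kdm1a: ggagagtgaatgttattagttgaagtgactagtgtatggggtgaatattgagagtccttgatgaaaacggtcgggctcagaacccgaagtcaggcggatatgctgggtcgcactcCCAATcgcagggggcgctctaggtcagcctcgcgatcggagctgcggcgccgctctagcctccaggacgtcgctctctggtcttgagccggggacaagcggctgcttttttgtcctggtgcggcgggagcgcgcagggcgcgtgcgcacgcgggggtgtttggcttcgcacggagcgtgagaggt
Kmt5b, upstream start: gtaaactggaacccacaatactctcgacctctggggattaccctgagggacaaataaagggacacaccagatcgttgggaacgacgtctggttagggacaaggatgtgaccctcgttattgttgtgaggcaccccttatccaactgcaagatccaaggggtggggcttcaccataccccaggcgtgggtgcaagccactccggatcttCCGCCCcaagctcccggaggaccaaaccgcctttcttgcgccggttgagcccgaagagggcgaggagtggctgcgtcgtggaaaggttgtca
Kmt5b, downstream start: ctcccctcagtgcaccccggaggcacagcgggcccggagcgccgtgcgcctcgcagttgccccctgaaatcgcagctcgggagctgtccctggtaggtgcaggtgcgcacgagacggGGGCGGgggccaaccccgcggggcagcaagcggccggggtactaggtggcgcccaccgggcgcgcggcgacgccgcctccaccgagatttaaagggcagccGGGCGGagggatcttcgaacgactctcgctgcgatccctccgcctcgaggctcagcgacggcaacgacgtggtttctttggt

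The Kdm1a window held 1 CCAAT and no GC box. The upstream window of Kmt5b held 1 GC box, on the opposite strand, and the downstream window held 2. Among the 57 genes, 52 had a window in the table, with 71 windows in all. A GC box was present in 49 of these 71 windows (69.0%), against 35.7% of all 32851 windows of mouse genes. CCAAT was present in 31 (43.7% against 37.4%), and TATAAA, the TATA box, in 2 (2.82% against 13.6%). The ETS site CCGGAAGT was present in 5 (7.04% against 3.89%), and the cAMP response element TGACGTCA in 0 (against 1.79%). The median GC content was 62% against 52.7%, and the median number of CpG dinucleotides was 23 against 7. The windows of these genes were thus rich in CpG and GC boxes and seldom held TATAAA. Each motif was searched on both strands, none of the motifs contains another, and a match is a description of letters only.

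Values per array numbered 19530 to 20584, array medians ran from -0.125 to 0.242, and the interquartile range of an array ran from 0.382 to 1.27, widest in liver of mouse 1 with mutant RNA in Cy3. In brain, 3 of 8567 genes tested passed an adjusted p of 0.05 in limma (0.035%). They were Prl, Pomc and Crybb2, none of them a chromatin gene. All 6 pituitary markers tested, of 10 listed, were lower in brain (median -2.18, range -4.35 to -0.08). The medians of this list in mice 1 to 4 were -1.33, -1.56, -2.36 and -2.69, so the list was below the pool in every brain. The part of this list in the chromatin genes' brain values was not tested. In liver the same list had a median of 0.10. The other lists had medians in brain and liver of -0.032 and 0.069 (neurons), -0.057 and 0.025 (astrocytes), -0.053 and 0.038 (oligodendrocytes) and -0.012 and -0.056 (microglia and macrophages). They were 0.070 and -0.21 for blood, -0.095 and -0.18 for hepatocytes, 0.0044 and 0.041 for pancreas, -0.27 and 0.013 for cholangiocytes and 0.094 and -0.13 for proliferation. No gene of these lists other than Prl and Pomc passed.

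In brain, the highest mean among the members tested (at least 3 mice) was that of Kdm1a, at 1.05 ± 0.38 (SD, n = 4), and it was followed by Kmt5b at 0.55 ± 0.25 and Prmt6, an arginine methyltransferase, at 0.52 ± 0.34 (n = 3). The lowest was that of Smarcd1, a SWI/SNF subunit, at -0.54 ± 0.50. None of the 54 chromatin genes tested in brain passed the adjusted threshold, and the smallest adjusted p in limma was 0.715, for Kdm1a. At an unadjusted p under 0.05, 5 of 54 were called (9.26%), against 336 of all genes (3.92%). Of these, 4 were higher (7.41% against 1.89%) and 1 was lower (1.85% against 2.03%). Robust moderation in limma also gave 0 members past the adjusted threshold. Ep300, Ezh2 and Dnmt3l had paired values in only 2, 1 and 2 brains and were not tested there. Their values were -0.71 and -0.16 for Ep300, 1.11 for Ezh2, and 0.72 and 0.79 for Dnmt3l.

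Kdm1a had brain ratios of 0.61, 1.16, 1.51 and 0.92 in mice 1 to 4. All 4 brains were above the pool, and the lowest value, in mouse 1, was above the means of all other members tested. The 95% interval of the mean was 0.64 to 1.46, with an unadjusted p of 0.000604 in limma. In the separate dye orientations the values scattered far more. With mutant RNA in Cy5 they were 0.65, 3.25, 1.16 and 0.39, and with mutant RNA in Cy3 they were 0.57, -0.93, 1.87 and 1.46. Of the 8 brain arrays, the Cy3 array of mouse 2 alone was below 0.

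Kmt5b had brain ratios of 0.57, 0.23, 0.56 and 0.84, all above 0. Its interval was 0.22 to 0.88. The ratio came mainly from 1 orientation: the mean was 1.04 with mutant RNA in Cy5 and 0.05 with mutant RNA in Cy3, where mice 1, 2 and 4 were below 0 at -0.14, -0.30 and -0.47 and mouse 3 was at 1.12. Setd1a, the catalytic subunit of a COMPASS complex that methylates histone H3 at promoters, had brain ratios of 0.12, 0.39, 0.62 and 0.44 (mean 0.39 ± 0.21). All 4 were above 0, and the mean was 0.55 with mutant RNA in Cy5 and 0.23 in Cy3. Prmt6 had 0.31, 0.91 and 0.32 in mice 1, 3 and 4, and no paired value in mouse 2, whose single array (Cy3) was at -0.24. With that array taken in, the mean was 0.33 and the unadjusted p in limma was 0.154.

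Smarcd1 had brain ratios of -0.20, -0.03, -0.89 and -1.05. All were below 0, but mice 1 and 2 lay near the pool and mice 3 and 4 well below it. Without mouse 3 the mean was -0.43 (unadjusted p 0.12 in limma), and without mouse 4 it was -0.37 (unadjusted p 0.121). On the Cy5 arrays mice 1 and 2 were at 0.74 and 0.78 while mice 3 and 4 were at -1.27 and -2.09, so this orientation split the mice.

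By family, the brain medians ran from 0.016 (Prmt) to 0.17 (acetyltransferases). Of the 8 Kdm demethylases, 4 were higher and 4 lower (median 0.056), from Kdm5d at -0.09 to Kdm1a. The H3 demethylases Kdm2a, Kdm4b and Kdm5b were at 0.14, -0.055 and -0.030, and Kdm5c, an X-linked demethylase active in neurons, was at -0.046 ± 0.25 (n = 3). Of 8 lysine methyltransferases, 5 were higher (median 0.11), with Kmt5a, which places the first methyl group on histone H4, lowest at -0.28 ± 0.36. Ezh1, a catalytic subunit of Polycomb complex 2, was at -0.031 with an interval of -0.34 to 0.28. Of 6 Prmt genes, 3 were higher (median 0.016), and Prmt1 and Prmt5, the main enzymes for asymmetric and symmetric arginine methylation, were at -0.15 and 0.068.

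Among genes of acetylation in brain, 4 of 6 acetyltransferases were higher (median 0.17). Kat8, which acetylates histone H4, had the smallest scatter of them, with 0.18, 0.24, 0.15 and 0.21 in the 4 mice (mean 0.20 ± 0.04). All 4 values lay above 0, yet the limma interval, which borrows the spread of other genes, was -0.07 to 0.46. The single arrays of Kat8 scattered more than its mice, since mouse 3 was at 0.60 in Cy5 and -0.30 in Cy3. Kat2b was lowest at -0.13 and Kat14 highest at 0.24 (n = 3). Of 6 Hdac genes, 5 were higher (median 0.052), and all 6 lay between -0.026 (Hdac5) and 0.14 (Hdac3). Hdac2, a main class I deacetylase of brain, was at 0.041, with an interval of -0.29 to 0.37. Of the NAD-dependent sirtuins, 3 of 4 were higher (median 0.027), with Sirt2, abundant in myelin, at 0.28 ± 0.27 and Sirt1 at -0.093 ± 0.41.

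The maintenance DNA methyltransferase Dnmt1 was at 0.13 ± 0.18 in brain and the de novo enzyme Dnmt3a at 0.0046 ± 0.29. Of 10 Smarc genes, 6 were higher (median 0.038), and the motor subunits Smarca2 and Smarca4 were at 0.079 and -0.071. Of 4 Chd genes, 3 were higher (median 0.10), from Chd1 at -0.21 ± 0.72 to Chd4, the motor of the NuRD complex, at 0.13 ± 0.28. Over all 54 members, 35 were higher in brain (64.8%, against 56.7% of all genes) and the median was 0.057 against 0.023. The brain median was 0.011 without mouse 3 and 0.092 without mouse 1. With each array's median set to 0 and its spread scaled, 31 were higher (57.4% against 52.5%). Their medians in mice 1 to 4 were -0.099, 0.025, 0.22 and 0.040, beside -0.098, 0.008, 0.15 and 0.039 over all genes, so the members followed the general level of each array pair. Every mouse with a paired value was above 0 for 8 members (14.8% against 6.6% of all genes): Kdm1a, Kmt5b, Setd1a, Prmt6, Kat5, Kat8, Kat14 and Smarce1. Every mouse with a paired value was below 0 for 3 (5.56% against 4.66%): Prmt1, Smarcc2 and Smarcd1.

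**Figure D1:**
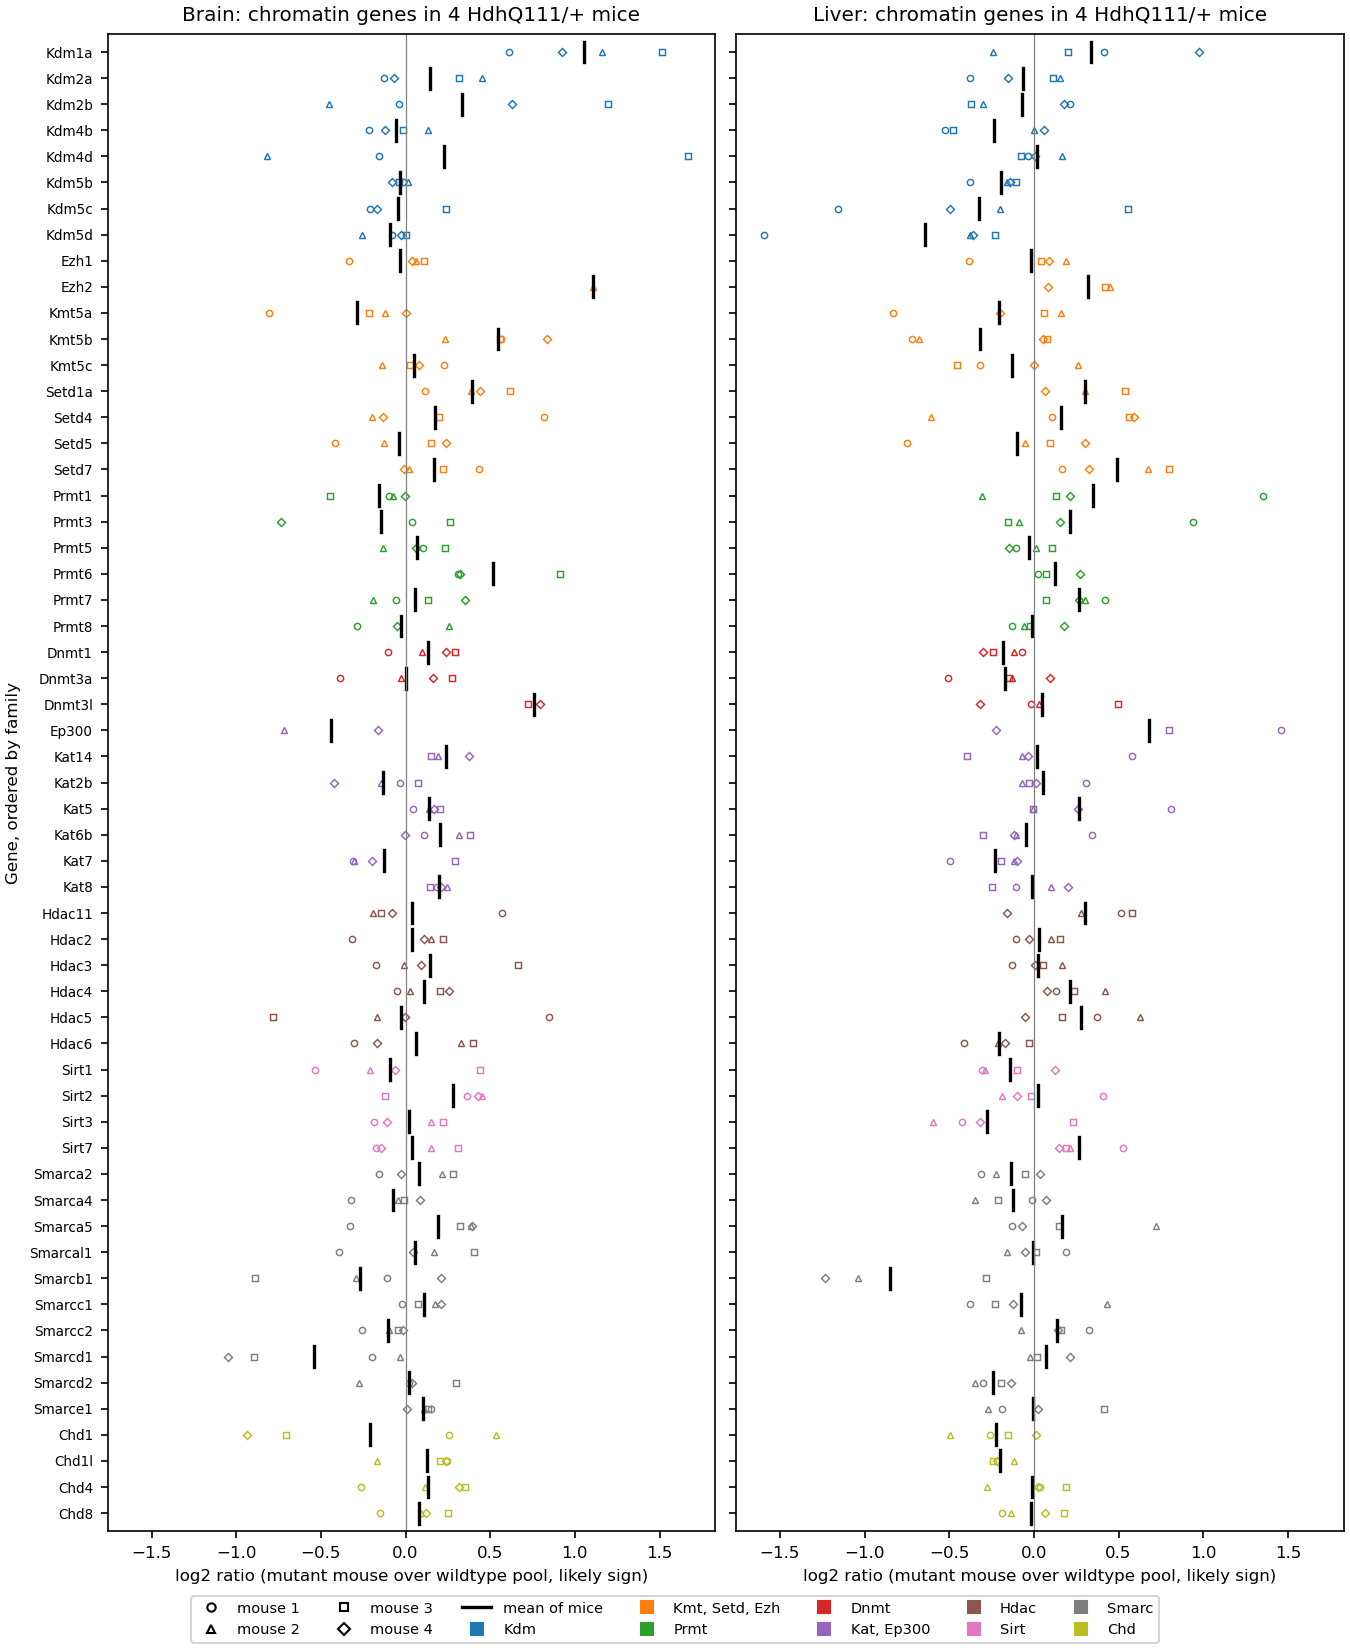
Log2 ratio (horizontal axis) of each of the 57 chromatin genes (vertical axis, grouped by family) in brain and liver. Points are single mice, each the mean of its dye-swapped arrays, and bars are means. Among genes with at least 3 mice, Kdm1a stood highest in brain at 1.05 and Smarcb1 lowest in liver at -0.85, while Ezh2 had 1 brain value, at 1.11, and most genes straddled 0.

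In liver, no gene of the 8803 tested passed the adjusted threshold (0%), nor did any of the 57 members, whose smallest adjusted p in limma was 0.575. The highest tested mean was that of the acetyltransferase Ep300, at 0.68 ± 0.85 with values of 1.46, 0.80 and -0.23 in mice 1, 3 and 4. Its arrays were opposed in mouse 3 (1.95 in Cy3, -0.35 in Cy5) and in mouse 4 (-1.69 in Cy3, 1.24 in Cy5). In mouse 1 they were at 1.66 and 1.26, and mouse 2 had only a Cy3 array, at -0.50. Ep300 was followed by Setd7, a lysine methyltransferase with histone and non-histone substrates, at 0.49 ± 0.30. The lowest were Smarcb1, a core SWI/SNF subunit, at -0.85 ± 0.50 (n = 3) and Kdm5d, a demethylase encoded on the Y chromosome, at -0.64 ± 0.64. At an unadjusted p under 0.05, 6 of 57 members were called (10.5%), against 725 of all genes (8.24%). Of these, 3 were higher (5.26% against 3%) and 3 lower (5.26% against 5.24%). Robust moderation in limma gave 0 members past the adjusted threshold here too.

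Setd7 had liver ratios of 0.17, 0.67, 0.80 and 0.32, all above 0, with an interval of 0.17 to 0.82. Its mean was 0.61 with mutant RNA in Cy5 and 0.62 in Cy3, so the orientations gave nearly the same mean. Both means take in arrays without a partner. The single mice did not match between orientations, at 1.12, 0.99, 0.13 and 0.20 in Cy5 and 0.215, 0.36, 1.47 and 0.445 in Cy3. The probes of Setd7 differed as well: 1 had a mean of -0.012 over 4 mice and the other 1.27 ± 0.82 over 3. The gene's ratio in liver thus came from 1 of its 2 probes, which had no paired value in mouse 1.

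Prmt7, an arginine monomethyltransferase, had liver ratios of 0.42, 0.30, 0.07 and 0.27 (mean 0.27 ± 0.14). All 4 were above 0, and the mean was 0.45 with mutant RNA in Cy3 and 0.084 in Cy5. Sirt7, a nucleolar deacetylase, had 0.53, 0.21, 0.19 and 0.15 (mean 0.27 ± 0.18). Mouse 1 stood highest, and its arrays were opposed, at 1.96 in Cy5 and -0.91 in Cy3. The mean over mice was 0.62 in Cy5 and -0.084 in Cy3, a change of sign between orientations.

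Smarcb1 had liver ratios of -1.04, -0.28 and -1.24 in mice 2 to 4, and no paired value in mouse 1. All 3 were below 0, and the interval was -1.40 to -0.31. The single array of mouse 1 (Cy5) was at 0.12. Mouse 2 was at -1.75 in Cy5 and -0.33 in Cy3, and mouse 4 at -0.25 in Cy5 and -2.22 in Cy3. Smarcd2, an accessory SWI/SNF subunit, had -0.30, -0.35, -0.19 and -0.14 (mean -0.24 ± 0.10). Its mice lay close together, but its orientations had opposite signs, at -0.62 in Cy3 and 0.13 in Cy5. Kdm5d had -1.60, -0.38, -0.23 and -0.36. All were below 0, with mouse 1 far below the others through its Cy5 array at -2.64. Without mouse 1 the mean was -0.32. That mean came from 1 orientation. Mice 2 to 4 were at -0.80, -0.52 and -0.65 in Cy3 and at 0.052, 0.056 and -0.068 in Cy5.

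Of the 9 lysine methyltransferases in liver, 4 were higher (median -0.016), with Kmt5b lowest at -0.32 ± 0.44. Ezh2, the main catalytic subunit of Polycomb complex 2 in dividing cells, had 0.45, 0.42 and 0.09 in mice 2 to 4 (mean 0.32 ± 0.20), and Ezh1 was at -0.016 ± 0.25. Of 8 Kdm genes, 6 were lower (median -0.13). Kdm5b was at -0.20 ± 0.12, and Kdm5c at -0.32 ± 0.71. Kdm1a was the highest Kdm gene at 0.34 ± 0.51, with values of 0.41, -0.24, 0.20 and 0.98. Of 6 Prmt genes, 4 were higher (median 0.17), led by Prmt1 at 0.35 ± 0.71, where mouse 1 was at 1.35 and mouse 2 at -0.31.

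Of 7 acetyltransferases in liver, 4 were higher (median 0.020), down to Kat7 at -0.23 ± 0.18. Of 6 Hdac genes, 5 were higher (median 0.12). Hdac11 was at 0.30 ± 0.33, and the class IIa deacetylases Hdac4 and Hdac5, which shuttle between nucleus and cytoplasm, were at 0.22 ± 0.15 and 0.28 ± 0.29. Hdac6, a mainly cytoplasmic tubulin deacetylase, was at -0.21 ± 0.16. Hdac2 and Hdac3 were at 0.031 (interval -0.19 to 0.26) and 0.025 (interval -0.20 to 0.25). Sirt3, the mitochondrial sirtuin, was at -0.28 ± 0.36, and Sirt1 at -0.14 ± 0.20.

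Dnmt1 was at -0.18 ± 0.11 in liver and below 0 in all 4 mice, and Dnmt3a was at -0.17 ± 0.25. All 4 Chd genes were lower (median -0.11), with Chd1l, a remodeller of DNA repair, at -0.20 ± 0.06 and Chd1 at -0.22 ± 0.21. With each array's median set to 0, 1 of the 4 was higher, and with the spread scaled as well, 2 were. Of 10 Smarc genes, 7 were lower (median -0.041), and 5 were lower with medians set to 0. The acetyltransferase median was -0.0083 and the lysine methyltransferase median 0.059 with medians set to 0 and spread scaled, each opposite in sign to the values above. The medians of the other families kept their sign in both tissues under both scalings.

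Over the 57 members, 25 were higher in liver and 32 lower (43.9% higher, against 43.4% of all genes), and the median was -0.0093 against -0.030. It was 0.0051 without mouse 1 and -0.037 without mouse 4. With each array's median set to 0, 30 were higher (52.6% against 46.5%). The members' medians in mice 1 to 4 were -0.11, -0.078, 0.043 and 0.013. Every mouse with a paired value was above 0 for 7 members (12.3% against 7.2% of all genes): Setd1a, Setd7, Ezh2, Prmt6, Prmt7, Hdac4 and Sirt7. Every mouse with a paired value was below 0 for 8 (14% against 14.2%): Kdm5b, Kdm5d, Kat7, Hdac6, Dnmt1, Chd1l, Smarcb1 and Smarcd2. Among members not yet described, Kdm2b, Kdm4d, Kmt5c, Setd4, Setd5, Prmt3, Prmt8, Kat6b, Smarca5, Smarcal1, Smarcc1 and Chd8 had mice on both sides of 0 in both tissues. Their means ran from -0.15 (Prmt3) to 0.33 (Kdm2b) in brain and from -0.13 (Kmt5c) to 0.21 (Prmt3) in liver. Setd1a and Prmt6 were above 0 in both tissues in every mouse with a paired value. Setd1a had liver ratios of 0.30, 0.54 and 0.07 in mice 2 to 4, and Prmt6 had 0.03, 0.07 and 0.27 in mice 1, 3 and 4. Mouse 2 had only single arrays for Prmt6, at 0.595 in liver (Cy5) and -0.24 in brain (Cy3).

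The tissues were then compared directly, in a limma fit to the 8 values of the mice for liver minus brain. This fit took the values as independent and left out the pairing by mouse, which is used only in the block fit below. Of 8483 genes, 2 passed the adjusted threshold (0.0236%), Prl and Pomc, and 0 of the 54 members tested in both tissues did (smallest adjusted p 0.677). At an unadjusted p under 0.05, 4 members were called (7.41%), against 612 of all genes (7.21%). The lowest p among the members was that of Kmt5b, with liver minus brain at -0.87 (SE 0.23, adjusted p 0.677 in limma). Its brain values of 0.23 to 0.84 lay above all its liver values of -0.72, -0.68, 0.08 and 0.05. Kdm1a differed by -0.71 (SE 0.28), and its tissues overlapped, since mouse 4 was at 0.98 in liver. Chd1l differed by -0.33 (SE 0.15) and Smarcd1, the only one of the 4 higher in liver, by 0.61 (SE 0.27). With the mouse as a replicate block, the smallest adjusted p of a member was 0.684 in limma. An unadjusted p under 0.05 was then found for 3 of 54 members, against 604 of 8483 genes. Chd1l was no longer among these members.

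Of the 54 members, 39 were lower in liver than in brain (72.2%, against 57.4% of all genes), and the median difference was -0.10 against -0.048. With mutant RNA in Cy3 only it was -0.029, and in Cy5 only -0.21. The same sign in both tissues was seen for 29 (53.7% against 47.4%). Across the 54 members, which share mice and probes, brain and liver means had Pearson's r of 0.31 and Spearman's rho of 0.29, and over all genes -0.021 and -0.039. Without Kdm1a the members' values were 0.23 and 0.25.

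**Figure D2:**
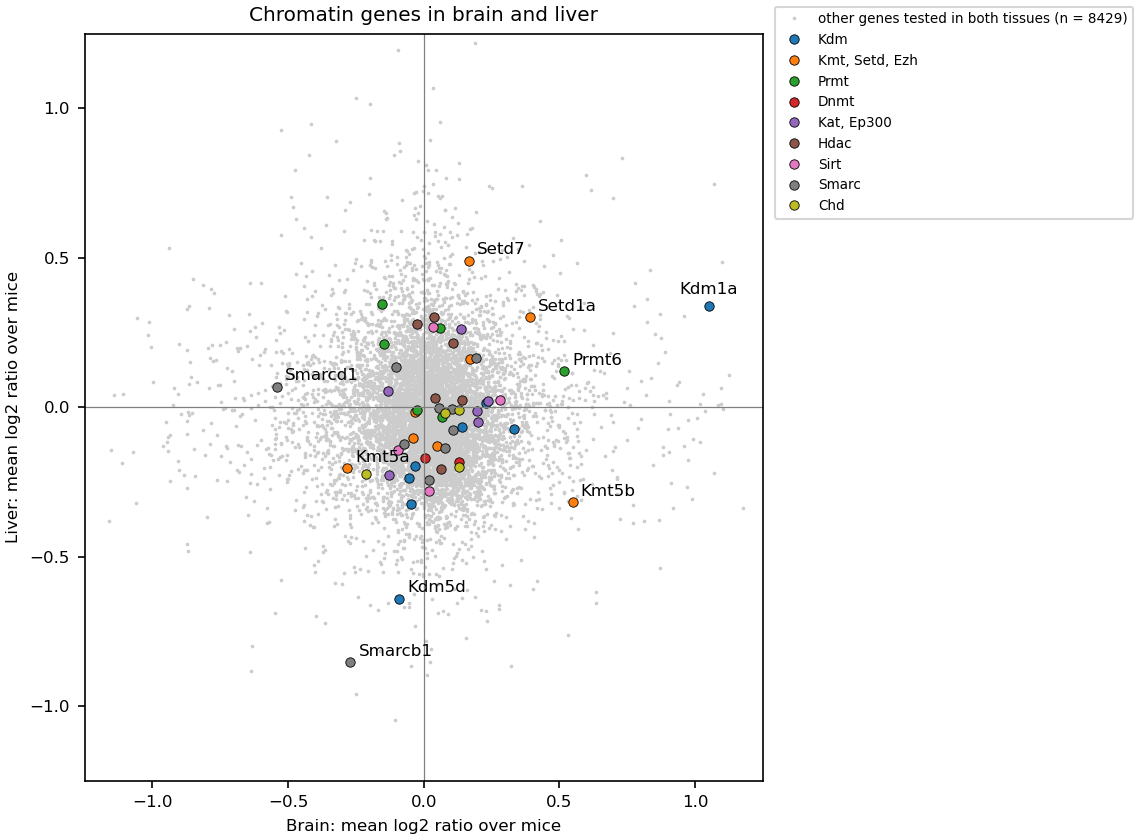
Mean log2 ratio over mice in brain (horizontal axis) and in liver (vertical axis). Coloured points are the 54 chromatin genes tested in both tissues, by family, and grey points are 8429 other genes, of which 11 lie outside the frame. Kdm1a and Kmt5b stand to the right at 1.05 and 0.55 in brain, and Smarcb1 and Kdm5d at the bottom at -0.85 and -0.64 in liver.

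The dye orientations bear on most of these values. In brain, 51 of 57 members had a higher ratio with mutant RNA in Cy5 than in Cy3 (89.5%, against 62.7% of all genes). The median over members was 0.22 in Cy5 and -0.11 in Cy3. Both orientations had the same sign for 22 members (38.6% against 33.7%). In liver, 34 of 57 were higher in Cy5 (59.6% against 55.4%), with medians of 0.072 and -0.16, and 21 had the same sign in both (36.8% against 36.1%). The sign of most members thus turned with the dye. The average of the Cy5 and Cy3 means over mice had a median size of 0.13 in brain and 0.17 in liver. The distance of these means from their average had a median of 0.17 and 0.20. Arrays of a single mouse could lie much farther apart, as for Kdm1a in brain of mouse 2, at 3.25 in Cy5 and -0.93 in Cy3. Smarcb1 in brain was an extreme case, at 0.82 in Cy5 and -1.36 in Cy3, with a pair mean of -0.27 ± 0.46. Kdm4d, an H3 demethylase, ran the other way in brain, at -0.77 in Cy5 and 1.04 in Cy3. Ezh2 had brain means of 0.99 and 1.39 in the separate orientations, but a pair in mouse 2 only, at 1.11.

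**Figure D3:**
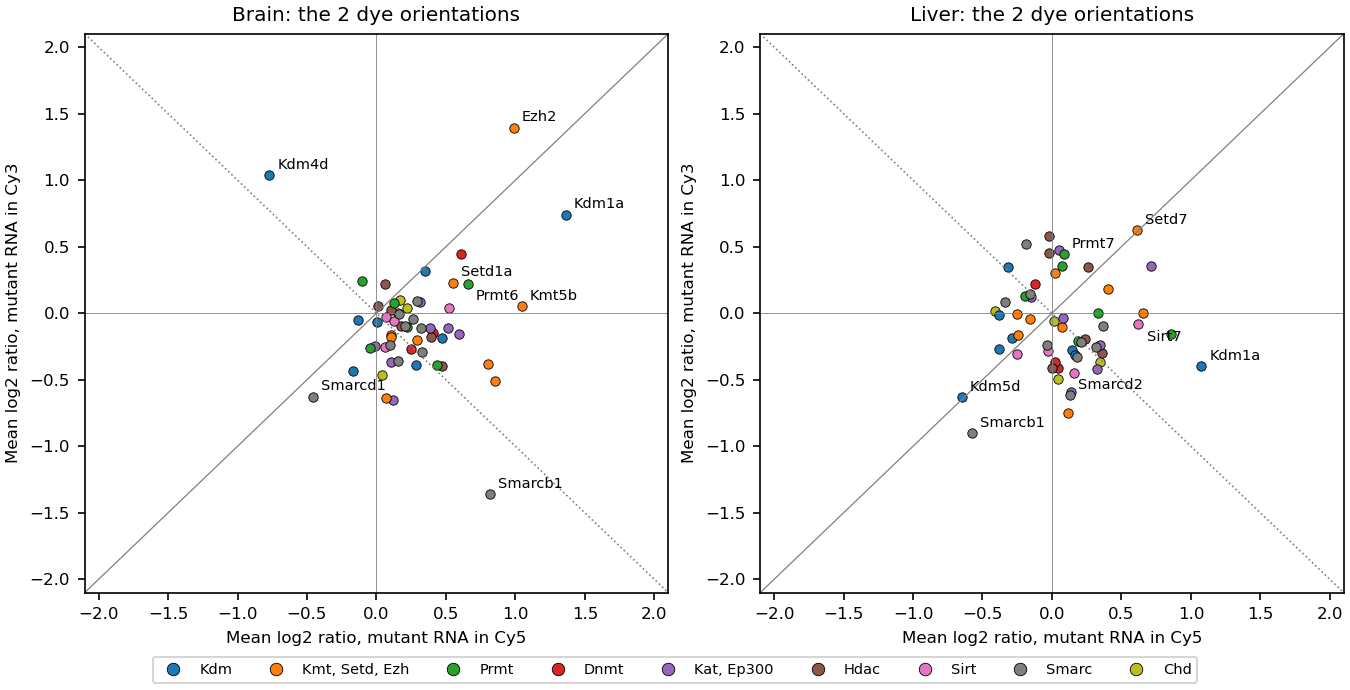
Mean log2 ratio of each of the 57 chromatin genes over the arrays with mutant RNA in Cy5 (horizontal axis) and in Cy3 (vertical axis), for brain and liver, with arrays lacking a partner included. The solid diagonal marks equal ratios and the dotted one opposite ratios: in brain 51 genes lie below the solid line, and Setd7 lies on it in liver.

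Probes of the same gene were a further measure of reliability. Of the 57 genes, 40 had 1 probe and 17 had more, up to 5 for Dnmt3a. In brain, the probes of 9 of 16 genes had the same sign, and the median range between probe means of a gene was 0.22. In liver, 7 of 17 had the same sign and the median range was 0.33, from 0.010 for Kdm4b to 1.28 for Setd7. Dnmt3a spanned -0.45 to 0.21 in brain and -0.71 to 0.13 in liver. Hdac5 spanned -0.034 to 0.65 in liver, Kat5 -0.0071 to 0.53 and Smarca4 -0.43 to 0.18. Sirt7 had liver probe means of 0.058 and 0.48, and both were above 0. Kmt5a, with 3 probes, was below 0 with all of them in both tissues, from -0.67 to -0.025 in brain and from -0.32 to -0.10 in liver, but mouse 1 weighed heavily: without it, the mean of Kmt5a in brain was -0.11 and that of Kmt5a in liver 0.0051. Kdm1a, Kmt5b, Setd1a, Prmt6, Prmt7, Smarcd1, Smarcb1, Smarcd2 and Kdm5d had 1 probe each, so no second probe could be set beside them.

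**Figure D4:**
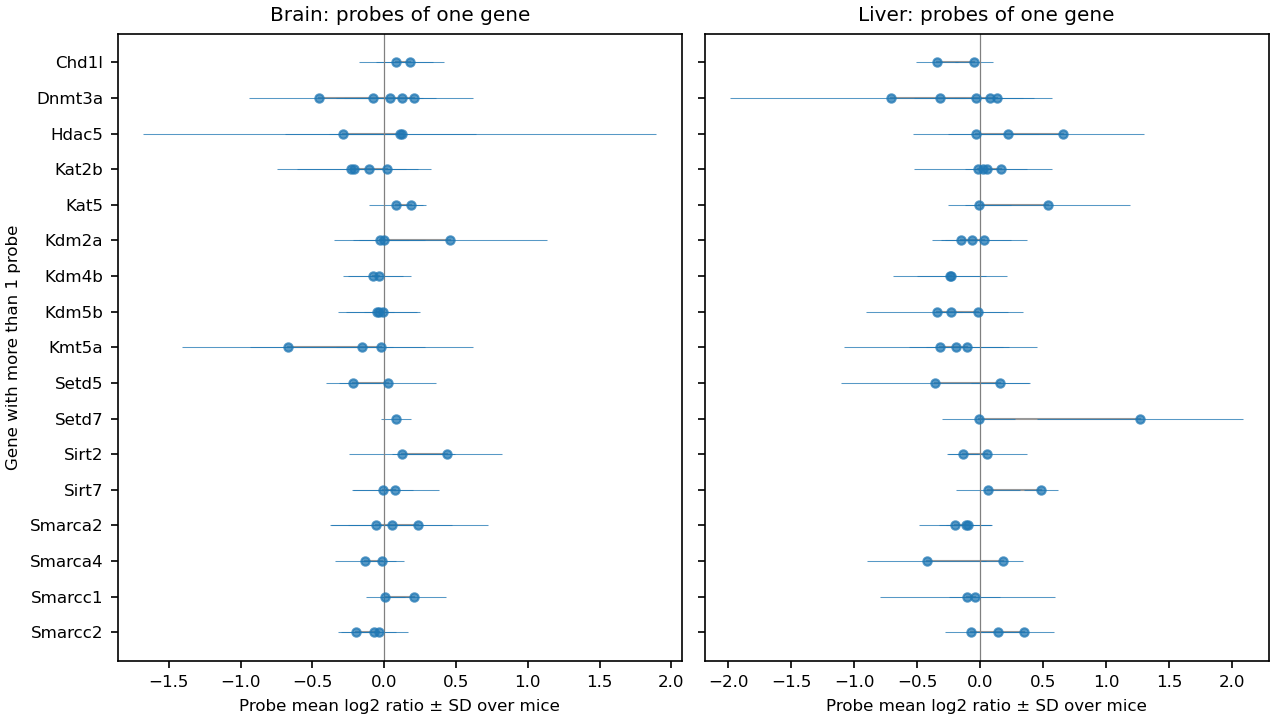
Mean log2 ratio of each probe (horizontal axis) for the 17 chromatin genes with more than 1 probe (vertical axis), in brain and liver. Each point is 1 probe, over its mice with a paired value, thin lines are ± SD over mice and grey lines join the probes of a gene. The probes of Setd7 lie farthest apart in liver, at -0.012 and 1.27.

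Other chromatin proteins, from a list of 155 cofactors, readers and further enzymes of the same complexes, had 91 genes on the array. None passed the adjusted threshold in limma in either tissue. In brain, 51 of 87 tested were higher, beside 56.7% of all genes, and the median was 0.013 against 0.023. At an unadjusted p under 0.05, 0 were higher and 2 lower. Of all genes, 1.89% were called higher and 2.03% lower, and 3.92% in either direction. The lower genes in brain were the demethylase Phf2 at -0.60 ± 0.41 and the CoREST corepressor Rcor3 at -0.48 ± 0.24. The other CoREST genes, Rcor1 and Rcor2, were not called, at -0.027 ± 0.21 and 0.22 ± 0.97. In liver, 49 of 90 were higher, beside 43.4% of all genes, and the median was 0.027 against -0.030. At that p, 6 were higher and 3 lower. Of all genes, 3% were called higher and 5.24% lower, and 8.24% in either direction. Of the listed genes tested, 2.3% were thus called in brain and 10% in liver. The higher genes were the methyltransferases Ehmt1 (0.36 ± 0.16) and Smyd2 (0.36 ± 0.25), the Polycomb-associated proteins Asxl2 (0.33 ± 0.18) and Phf19 (0.39 ± 0.34), Ing2 (0.32 ± 0.12) of the Sin3 deacetylase complex and the DNA-bending protein Hmgb1 (0.27 ± 0.10). The lower genes were the insulator protein Ctcf (-0.37 ± 0.30), the coactivator Ncoa3 (-0.30 ± 0.23) and the Sin3 subunit Suds3 (-0.26 ± 0.18).

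The precision was set by 4 mice and 2 arrays each. The 95% interval of the mean lay wholly within 0.5 of 0 for 35 of 54 members in brain (64.8% against 56.3% of all genes). In liver it did so for 35 of 57 (61.4% against 64.8%). It lay within 1 of 0 for 51 in brain (94.4% against 91.1%) and 54 in liver (94.7% against 94.4%). For Hdac2, Dnmt1, Ezh1, Prmt5, Smarca4 and Chd4, the intervals in both tissues lay within 0.5 of 0. The p-values measure the spread between these mice and leave out that between wildtype mice, since each pool was 1 control sample.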

How the data were processed

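RNA of brain and liver was compared with a wildtype pool on 16 arrays, 8 per tissue, 2 per mouse. The authors deposited normalized log2 ratios for 20794 probes (base 2 assumed); how they were background-corrected, normalized and filtered is not given in the sources used here. Spot intensities were not used here, and precision is limited by how many arrays there were. The 1496 ratios of over 10 in size (at least 16.5, all others at most 8.30) were set to missing. Of the probes, 12771 had 1 symbol in the platform annotation, and the symbol of a probe was given to the value 11 rows further on. To compare shifts, probe values were turned into standardised ranks within each mouse and tissue. Over 4964 pairs of probes of a gene, the mean product of these ranks was 0.034 at this shift. It was 0.0093 at none and at most 0.013 at others within 30 rows. Probes of a gene thus agreed only weakly, even at the shift used. Over 20673 probes, the differences between dye orientations in brain and liver had Spearman's rho of 0.40 and the pair means -0.0026. On this basis the pair mean was taken as the genotype ratio. The comparison cannot settle that choice, since a genotype ratio shared by both tissues would also correlate between them. Over the 57 members alone, rho was 0.088 for the differences and 0.31 for the pair means, the reverse order. The choice thus rests on all probes and not on the members.

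Dye-swapped arrays were averaged within a mouse (both required), then probes within a gene. Genes with at least 3 mice were tested against 0, two-sided, per tissue, and for liver minus brain, with limma 3.58.1 in R 4.3.3, and Benjamini-Hochberg adjustment over all genes at 0.05. This was tested on simulated data. The labels give both tissues the same mice, which pairs them. Each mouse's brain and liver deviations correlated at 0.034, -0.0014, 0.052 and 0.041. Against the liver deviations of the other mice, the mean correlations were -0.022, 0.0091, -0.012 and -0.017. The members, the marker lists and the list of other chromatin genes were chosen with earlier results of these data known. Members named are those with an unadjusted p under 0.05, the lowest p-values per comparison, the extremes of each family, well-known enzymes and genes with several probes. Those listed for the sign of every mouse, those flagged, and Kdm2a, Kdm4b, Kdm5b and Kat8 beyond that were named with their values seen. Alternatives were other dye, centring, missing-value, probe and offset choices, robust moderation, each mouse left out, and the mouse as a block. Promoter windows and motifs were read from RefSeq.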

Additional observations from a re-analysis of the deposited data

Results flagged for a closer look

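In 6 of 99 groups of 4 mice (a chromatin gene in a tissue), 1 mouse lay far from the other 3 by Dixon's criterion (critical value 0.829), which chance passes in about 1 of 20 groups. Kdm5d in liver was at -1.60 in mouse 1 and at -0.38 to -0.23 in the others. Hdac11 in brain was at 0.57 in mouse 1 and at -0.19 to -0.079 in the others, and Ezh1 in brain at -0.33 in mouse 1 and 0.040 to 0.11 in the others. Smarca5, the motor of ISWI complexes, was at -0.33 in brain of mouse 1 and at 0.32 to 0.39 in the others. Chd1l in brain was at -0.17 in mouse 2 and at 0.20 to 0.24 in the others. Sirt2 in brain was at -0.12 in mouse 3 and at 0.36 to 0.45 in the others. Mouse 1 was the distant one in 4 of the 6. The share of groups of all genes that pass this criterion was not counted, nor how often mouse 1 is the distant one there. Neither count can therefore be read as particular to the members. The cause was not tested.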

How the results depend on the processing

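No chromatin gene passed the adjusted threshold under any of the alternatives run, and no gene at all did in liver. With ratios of over 10 kept, 0 genes passed in brain and 1 for liver minus brain, where Smarcd1 was at -1.50. With medians set to 0, 1 gene passed in brain, and 0 with the spread scaled too. With values in all 4 mice required, 1 gene passed for liver minus brain. With 1 array of a pair enough, 1 passed in brain.

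With mutant RNA in Cy5 only, 0 genes passed in brain, 12 members had an unadjusted p under 0.05 there, the members' median was 0.21 in brain, 0.072 in liver and -0.21 for the difference, and Smarcd2 in liver was at 0.13. With Cy3 only, 9 members in brain, 13 in liver and 9 for the difference had such a p. The share of all genes with such a p was not counted in either orientation. These counts therefore cannot be read as particular to the members. With Cy3 only, the median was -0.11 in brain, -0.16 in liver and -0.029 for the difference, and Sirt7 in liver was at -0.084. With no row offset, which names other probes, 1 gene passed in brain and 1 for the difference, 3 members in brain had such a p, the median difference was 0.0040, Smarcd1 differed by -0.22, and in liver Prmt7 was at -0.13, Sirt7 at -0.012, Smarcb1 at 0.0090 and Smarcd2 at 0.12.

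Leaving out 1 mouse at a time gave 0 to 3 genes past the threshold in brain (1, 3, 0 and 1 without mice 1 to 4) and 0 to 1 for the difference. Members with such a p then numbered 2 to 5 in brain (2 without mouse 4, 3 without mouse 3), 3 to 5 in liver (3 without mouse 2 or 4) and 2 to 7 for the difference (7 without mouse 1). The members' median then ran from 0.011 to 0.092 in brain, -0.037 to 0.0051 in liver and -0.14 to -0.081 for the difference. With the mouse as a replicate block, 2 genes passed for the difference, and 3 of 54 members had such a p, against 604 of 8483 genes. With 1 mouse left out or no row offset, the share of all genes with such a p was not counted. Those counts of members therefore cannot be read as particular to them. The cause of the changes between settings was not tested. Depth could not be examined, since ratios carry no signal over background.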
